A study of Mus musculus with 72 samples.

Results

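Retinoic acid (RA)-treated leukaemias of the viral transduction model were compared between wild type (WT) and pml-/- mice, using 24 of the 72 arrays of a mouse series on acute promyelocytic leukaemia (APL). All 24 arrays carry the labels PML/RARA for the fusion protein, viral transduction for the model, and bone marrow for the tissue, with total RNA hybridised to Affymetrix Mouse Gene 1.0 ST arrays. Each background had 12 treated arrays: 8 taken at 6 h (4 in batch 3 and 4 in batch 4) and 4 at 12 h (all in batch 3), so background was balanced over time and batch. The 12 untreated viral arrays, 6 per background, were used to ask which differences were already present without RA. Arrays were chosen by their labels alone. The labels give no age, sex, RA dose or number of founder leukaemias, and nothing in them states that each array is its own animal, so a p-value here reflects the spread among arrays, which may be technical. If few transduced leukaemias lie behind each background, background and founder leukaemia cannot be told apart.

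APL is a leukaemia of cells resembling promyelocytes in which a fusion of the promyelocytic leukaemia protein PML to the retinoic acid receptor RARA represses myeloid genes and disperses PML nuclear bodies. These bodies are nuclear structures built on PML that recruit SUMO-modified partners such as SP100 and DAXX and have been linked to p53 signalling, senescence and interferon responses. RA binds the fusion, releases its repression and promotes its degradation, and normal Pml is then free to form bodies again, which cells without Pml cannot do.

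Values are on the log2 scale, and a difference is pml-/- minus WT throughout, so 1 unit is a factor of 2. A gene was called when its limma p, adjusted by Benjamini-Hochberg over 19938 genes, was below 0.05. With treatment, 5978 genes (30%) were called, 3219 (16.1%) higher and 2759 (13.8%) lower in pml-/-. Of these, 1675 (8.4%) differed by at least 1.5-fold and 187 (0.938%) by at least 4-fold, 58 (0.291%) higher and 129 (0.647%) lower. The values of the 12 pml-/- and 12 WT arrays did not overlap for 1102 genes (5.53%), of which 492 (2.47%) were higher and 610 (3.06%) lower. Array correlations over all genes lay between 0.974 and 0.997 within a background and between 0.956 and 0.978 across backgrounds. Of the WT arrays, 4 of batch 3 (2 at 6 h and 2 at 12 h) stood apart on the second principal component (14.9% of the variance), at -32.8 to -23.4 against -0.47 to 19.2 for the other 8. The 12 pml-/- arrays also spread on this component, from -16.7 to 26.0, and a gap was looked for among WT arrays only. With these 4 WT arrays left out, an alternative added after seeing the data, 6724 genes were called, among them 5305 (88.7%) of the 5978 with the same sign.

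The Pml transcript did not mark the deletion. Pml was at 9.28, 9.85 and 10.23 (lowest, median, highest) in the 12 treated WT arrays and at 9.56, 10.01 and 10.22 in the 12 treated pml-/- arrays. The groups overlapped, with a difference of 0.06 ± 0.10 (SE; adjusted p = 0.752). Where the probe set lies relative to the deleted part is not given in the sources used here, so Pml is no check of the labels in either direction. Xist, the X-inactivation transcript, also overlapped, with medians of 8.98 in WT and 8.88 in pml-/-.

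The largest falls among the named genes began with Gal, Ms4a3, Klk1b22 and Mgl2. Gal, which encodes the neuropeptide galanin, was at 11.88, 12.33 and 12.74 in WT and at 6.12, 6.50 and 6.89 in pml-/-. Every pml-/- array lay far below every WT array, a 55.6-fold difference of -5.80 ± 0.10 (adjusted p = 7.91e-23). Ms4a3, a surface protein of granulocyte and monocyte progenitors, was at 11.69, 11.96 and 12.56 in WT and at 5.76, 6.34 and 7.18 in pml-/-, a difference of -5.65 ± 0.13 (adjusted p = 1.41e-20). Mgl2, a galactose-binding lectin of macrophages, was at 10.16, 10.86 and 11.55 against 5.32, 5.58 and 5.92, a difference of -5.27 ± 0.12. Again no array of one background reached the range of the other.

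Car4, a membrane carbonic anhydrase, was 37.9-fold lower and Retnla, a resistin-like protein of alternatively activated macrophages, 30.3-fold lower. Ceacam10, an adhesion molecule of the carcinoembryonic family, differed by -4.96 ± 0.10, and Ica1 and Ptprn, proteins known from islet secretory vesicles, by -4.60 ± 0.11 and -4.46 ± 0.12. The lipase gene Lipo3 was lower (-4.30 ± 0.10). The tissue kallikreins Klk1b22 (-5.43) and Klk1b11 (-4.45) and the NKG2D ligand Raet1d (-5.15) belong to families of closely similar copies, so which copy was measured is uncertain. Gm5662, a predicted gene outside the naming rule and chosen after its value was seen, differed most of all genes, by -6.47.

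**Figure D1:**
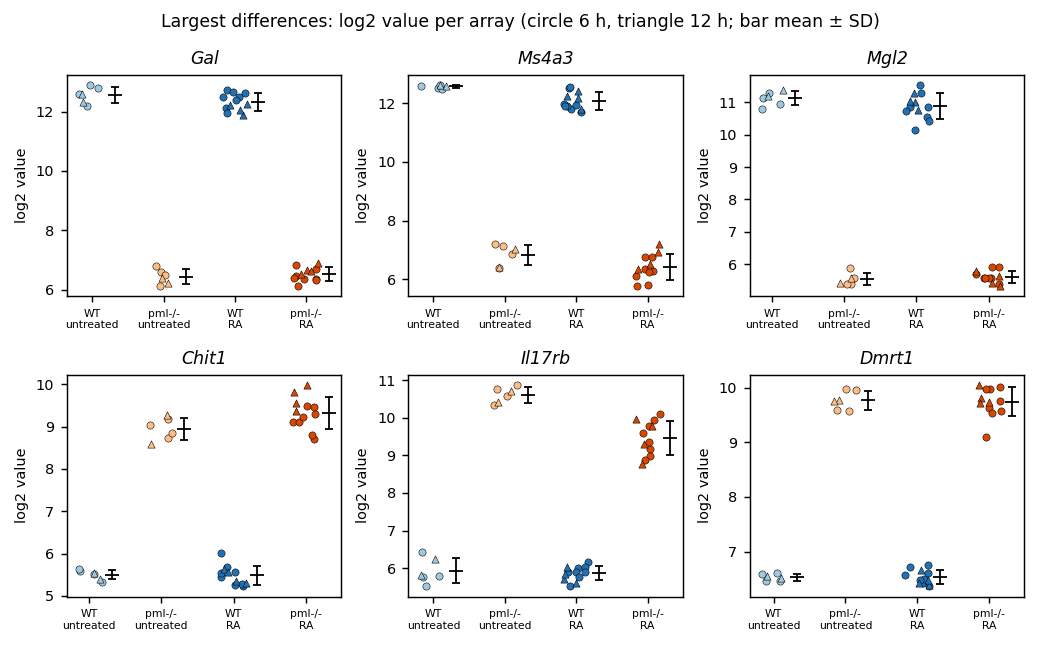
Log2 values of 3 of the largest falls and 3 of the largest rises, with each point 1 array (circles 6 h, triangles 12 h) and bars the mean ± SD of the 6 untreated or 12 treated arrays of a group. In every panel the treated groups lie apart, for example Gal at 11.88 to 12.74 in WT and 6.12 to 6.89 in pml-/-, and the untreated groups lie on the same sides.

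The largest rises among the named genes began with Chit1, Il17rb, Mgam and Cpa3. Chit1, the chitin-cleaving enzyme chitotriosidase, was at 5.22, 5.48 and 6.02 in WT and at 8.71, 9.33 and 9.99 in pml-/-. The groups did not overlap, and the difference was 3.85 ± 0.11 (14.4-fold, adjusted p = 9.74e-19). Il17rb, the receptor for interleukin 25, was at 5.51, 5.89 and 6.15 in WT and at 8.77, 9.47 and 10.09 in pml-/-, a difference of 3.60 ± 0.13. Mgam, an intestinal type maltase, was higher by 3.49 ± 0.14 and Cpa3, the mast cell carboxypeptidase, by 3.31 ± 0.27, from WT medians of 8.58 and 8.48. The 4 WT arrays that stood apart held Mgam at 8.57 to 9.84, against 8.09 to 8.80 in the other 8, and without them its difference was 3.76. Tcf12, a helix-loop-helix factor of the E protein family, was higher by 3.21 ± 0.09.

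Dmrt1, a testis transcription factor, was at 6.36, 6.49 and 6.76 in WT and at 9.11, 9.75 and 10.05 in pml-/-, with no overlap and a difference of 3.21 ± 0.08. The other named rises were Armcx3 (3.08), Cibar1 (3.01), the adhesion receptor Adgrl4 (2.94), Lurap1l (2.88), the phospholipid scramblase Plscr1 (2.86) and Cryzl2 (2.82), and none of these 6 overlapped between backgrounds. The clone-named genes 4930447C04Rik (4.65) and 4933440M02Rik (4.24) were higher still but fall outside the naming rule.

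Most large differences were already present in the untreated leukaemias. There, 6704 genes (33.6%) were called, and 4658 genes were called with the same sign with and without RA, which is 77.9% of the treated and 69.5% of the untreated calls. Among treated calls of at least 4-fold, 185 of 187 (98.9%) were called untreated with the same sign, and among those of at least 1.5-fold 1577 of 1675 (94.1%). Gal differed by -6.13 untreated and -5.80 treated, Ms4a3 by -5.73 and -5.65, Dmrt1 by 3.24 and 3.21, and Tcf12 by 3.04 and 3.21. Over all 19938 genes the treated and untreated differences had a Pearson r of 0.924, given as a description, since genes are not independent and all arrays share platform, model and batches.

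The change of the difference under RA (treated minus untreated difference, tested as an interaction over 36 arrays) was called for 230 genes (1.15%), 148 (0.742%) in the direction of pml-/- and 82 (0.411%) in the direction of WT. Without the 4 WT arrays that stood apart it was called for 512 genes, 256 in each direction, among them 213 (92.6%) of the 230 with the same sign. This test shares arrays with both differences, so its crossing with their calls is a description. Of the 230, 118 kept their sign in both states, 33 of them with a larger and 85 with a smaller difference under RA. In 49 the difference was called under RA but not without it, in 43 it was called without RA but not with it, and in 20 it was called in both with opposite signs. A further 1295 genes were called under RA but not without it, including those 49; for 3.78% of them the change itself was called, so appearing under RA was not shown for the rest.

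**Figure D2:**
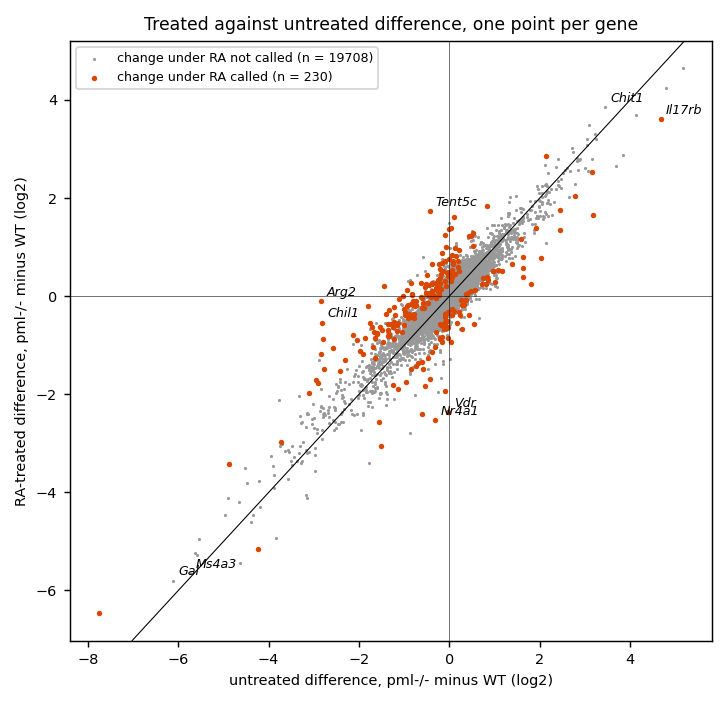
Treated against untreated difference (pml-/- minus WT, log2) for all 19938 genes, with the line of equal difference. Grey points are genes whose change under RA was not called and the 230 orange points those where it was; Nr4a1 and Vdr lie near 0 untreated and below -2 treated, and Arg2 the reverse.

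Among the differences that appeared under RA, the nuclear receptors Vdr and Nr4a1 had the largest changes towards WT of the named genes. Nr4a1, an orphan receptor induced early by many stimuli, had medians of 7.04 in untreated WT and 6.71 in untreated pml-/- arrays (difference -0.32, adjusted p = 0.118). With RA it was at 8.89, 9.66 and 9.96 in WT and at 6.50, 7.03 and 7.98 in pml-/-, a difference of -2.53 ± 0.14. The treated groups did not overlap, and the treated pml-/- arrays lay near the untreated level. The effect of RA was 2.52 ± 0.16 in WT and 0.31 ± 0.16 in pml-/- (adjusted p = 0.229), and the change was -2.21 ± 0.23 (adjusted p = 2.24e-07). For comparison, an RA effect was called for 18.2% of genes in WT and 16.5% in pml-/-.

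Vdr, the vitamin D receptor and like RARA a partner of RXR, was near 6 in both untreated groups, with medians of 6.08 and 6.00. With RA it was at 7.86, 9.27 and 10.12 in WT and at 6.14, 6.73 and 7.35 in pml-/-. The treated groups were apart, and the change of the difference was -2.35 ± 0.37 (adjusted p = 0.000279). Bcl2l15, a member of the Bcl2 family, followed the same course, with a treated difference of -1.93 ± 0.22 against -0.09 untreated. Mmp9, the gelatinase of neutrophil granules, was lower in pml-/- in both states and more so with RA (-3.05 ± 0.24 against -1.51 ± 0.20). Tgm2, a transglutaminase induced by RA in APL cells, was lower in both states, with a difference of -1.70 ± 0.20 with RA and -0.44 ± 0.11 without.

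Other differences appeared with higher levels in pml-/-. Stra8, an RA-induced gene of germ cells, was at 4.22, 4.40 and 4.55 in treated WT and at 5.03, 5.64 and 6.86 in treated pml-/- arrays. All treated pml-/- arrays were above all WT arrays, while the untreated medians were 4.29 and 4.35, and the change was 1.36 ± 0.25 (adjusted p = 0.00163). These Stra8 medians all lie below the array medians of 6.56 to 6.76, so the gene is near the low end of the scale. Gfi1b, a zinc finger repressor of erythroid and platelet precursors, was induced in both backgrounds, by 1.18 ± 0.23 in WT and 2.68 ± 0.23 in pml-/-, which left a treated difference of 1.61 ± 0.22. Tent5c, a poly(A) polymerase, differed by 1.73 ± 0.30 with RA and by -0.44 ± 0.36 without, and its treated groups overlapped; among the 12 h arrays alone its difference was 0.73 and not called.

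Of the 12 named genes whose difference was called without RA and not with it, 6 were lower in untreated pml-/- leukaemias and 6 were higher. Arg2, the mitochondrial arginase, differed by -2.84 ± 0.17 untreated and by -0.11 ± 0.21 treated (adjusted p = 0.783), with RA effects of -1.70 in WT and 1.04 in pml-/-. Treated Arg2 was at 6.65, 7.65 and 8.50 in WT and at 6.28, 7.53 and 8.50 in pml-/-, so the groups overlapped, although Arg2 was called lower in batch 4 alone (-0.87, adjusted p = 0.0271). Fcgr3, a low-affinity receptor for immunoglobulin G, moved from -1.44 ± 0.20 to 0.21 ± 0.16 with RA effects of 1.11 in WT and 2.76 in pml-/-. The chitinase-like gene Chil1 (-2.82 to -0.54), the inflammasome sensor Nlrp3 (-1.80 to -0.21), the Toll-like receptor kinase Irak2 (-0.84 to 0.28) and the fatty acid receptor Ffar2 (-1.12 to -0.05) also did not pass with RA. Chil1 was called lower at 6 h alone (-1.02) and without the 4 WT arrays that stood apart (-0.74), and without those arrays the change of Ffar2 was no longer called (0.77, adjusted p = 0.0624). On the side higher untreated, Hipk2, a kinase found in PML nuclear bodies, went from 0.36 ± 0.10 to -0.09 ± 0.05 and the transporter Slc22a4 from 0.58 ± 0.08 to 0.12 ± 0.06, with Slc22a4 called higher at 6 h alone (0.22) and in batch 4 alone (0.35). The other 4 were Unc119b (0.33 to -0.19), Fam160b1 (0.27 to -0.17), Zfp27 (0.34 to -0.08) and Cdc42ep4 (0.49 to 0.10), and Unc119b and Fam160b1 were called lower with RA in some alternative fits, among them 6 h alone (-0.22 and -0.26).

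Other differences shrank but remained. Tgfbi, an extracellular matrix protein, went from -2.80 to -0.88 (not called at 12 h alone, -0.12, or in batch 3 alone, -0.68), Clec4n, the fungal lectin receptor dectin-2, from -2.83 to -1.18, and Steap4, a metalloreductase, from -2.58 to -1.06. The sialyltransferase St8sia5 went from -4.89 to -3.43, and on the side higher in pml-/- Cd40lg, the ligand of CD40, went from 3.17 to 1.65. Wee2, a kinase of oocytes, went from 1.81 ± 0.18 to 0.24 ± 0.08, and the latter was not called at 6 h alone (0.14), at 12 h alone (0.45), in batch 4 alone (0.075), with all 36 arrays in 1 fit (0.24) or without the 4 WT arrays that stood apart (0.21).

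**Figure D3:**
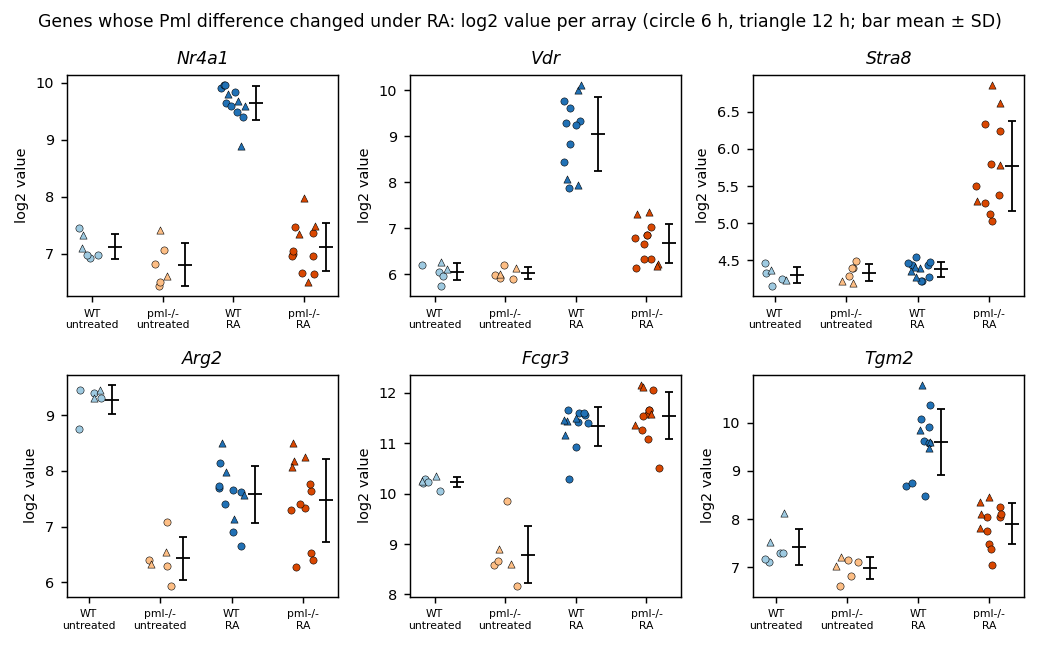
Log2 values by group for 6 genes whose difference changed under RA, drawn as points per array (circles 6 h, triangles 12 h) with the mean ± SD. The untreated groups of Nr4a1, Vdr and Stra8 share a range and the treated groups do not; Arg2 and Fcgr3 show the reverse, with treated medians of 7.65 and 7.53 and of 11.46 and 11.59.

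Few changes with time were called: Ngp and Ces2g (2 genes, 0.01%) passed the limma test of 12 h against 6 h. In the same test 1164 genes (5.84%) had an unadjusted p below 0.05. Of the lists read below, this held for 11 of 24 secondary granule genes and 6 of 29 p53 targets. Without the 4 WT arrays that stood apart, 15 genes were called, of which Ngp was shared. Ngp, a neutrophil granule protein, was lower in pml-/- by a margin that was 1.73 smaller at 12 h, and the carboxylesterase Ces2g by one that was 1.55 smaller. All 12 h arrays are in batch 3 and number 4 per background, which limits this test. Its fit had no background by batch term, so a background difference that varied by batch could enter the time term.

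Genes were next read by list, with the counts of called members set against 16.1% higher and 13.8% lower among all genes, whose median difference was -0.01. The lists show how many members differed and are not tests of the lists. In bulk marrow, fewer cells of a type and less RNA per cell cannot be told apart.

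Interferon response genes were lower in pml-/- almost throughout: 23 of 26 were called lower and 1 higher, with a median of -1.09, and 25 were already lower untreated (median -1.24). Rtp4, an interferon-induced receptor transporter, was at 9.63, 10.05 and 10.68 in WT and at 6.40, 6.94 and 8.42 in pml-/-, a difference of -3.05 ± 0.15 without overlap. The oligoadenylate synthetases Oas3 (-2.40 ± 0.16), Oas2 (-2.11), Oasl1 (-1.92 ± 0.13) and Oas1a (-1.75), which sense viral double-stranded RNA, were lower. So were Irf7 (-1.75 ± 0.11), the factor that amplifies the response, and Ifit1 (-2.38 ± 0.21), an inhibitor of viral RNA translation. Irf1 was the member called higher (0.25), and Mx1 (-0.06) and Stat2 (-0.31) were not called. The list median was -1.12 in batch 3 alone, -0.98 in batch 4, -1.11 at 6 h and -0.94 at 12 h.

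The interferon-stimulated response element, bound by complexes of STAT and IRF factors, has the core GAAANNGAAA, which was searched on both strands of the RefSeq promoters of build GRCm38.p6 (250 bases before to 50 after a start). It was found in 3.45% of 32544 promoters and in 14 of the 25 promoters of interferon genes (56%). By gene, 13 of the 20 interferon genes with an entry had it, and 12 of the 18 called lower. The 150 bases before the start are shown for a gene named above, Oas3, and for Ifit1 and Ddx60, which were chosen after their values were seen, with the matches in capitals. Coordinates are chr5:120777660-120777809 on the minus strand, chr19:34640739-34640888 and chr8:61927937-61928086 on the plus strand. Ddx60, a helicase that aids RNA sensing, differed by -1.34 ± 0.28.
Oas3: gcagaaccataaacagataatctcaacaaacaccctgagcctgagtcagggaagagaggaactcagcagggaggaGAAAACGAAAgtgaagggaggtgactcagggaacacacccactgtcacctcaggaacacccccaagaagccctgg
Ifit1: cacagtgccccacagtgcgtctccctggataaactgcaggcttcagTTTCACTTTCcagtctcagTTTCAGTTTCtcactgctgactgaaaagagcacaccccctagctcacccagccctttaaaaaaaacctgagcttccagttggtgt
Ddx60: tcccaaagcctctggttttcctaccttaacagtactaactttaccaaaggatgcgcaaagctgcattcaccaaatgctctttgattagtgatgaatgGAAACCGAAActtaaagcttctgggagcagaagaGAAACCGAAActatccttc
A match of letters describes these promoters and does not show binding.

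Secondary granule and mature neutrophil genes were lower in 20 of 24 cases and higher in none, with a median of -1.42, and all 24 were lower untreated. Camp, the cathelicidin of secondary granules, was at 10.83, 11.15 and 12.72 in WT and at 6.80, 7.66 and 8.13 in pml-/-, a difference of -3.73 ± 0.18. The ranges did not overlap, and those of Cxcr2, the chemokine receptor of neutrophils (-3.24 ± 0.26), and of Retnlg (-3.10 ± 0.22) did not either. S100a8 (-1.79) and S100a9 (-2.51), the calprotectin subunits, and Pglyrp1 (-1.64 ± 0.10) were lower as well. Itgam, the CD11b integrin, was lower (-0.70 ± 0.17) but was not called in batch 3 alone (-0.46) or at 12 h alone (-0.10). Without the 4 WT arrays that stood apart the Itgam difference was -1.02. The list median was -1.17 in batch 3 and -1.87 in batch 4, and -1.63 at 6 h and -0.91 at 12 h, where 9 members were called.

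Primary granule genes, which mark promyelocytes, were mixed: 3 of 15 were higher and 8 lower. Mpo, the myeloperoxidase, had medians of 13.24 in WT and 13.39 in pml-/- (difference 0.14 ± 0.03, not called within batch 3, batch 4 or 12 h alone). Elane, neutrophil elastase, was lower (-0.75 ± 0.07) and so was Fcnb, a secreted lectin (-3.37 ± 0.16). Ctsc, the protease that activates granule proteases, was lower (-1.29 ± 0.13).

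**Figure D4:**
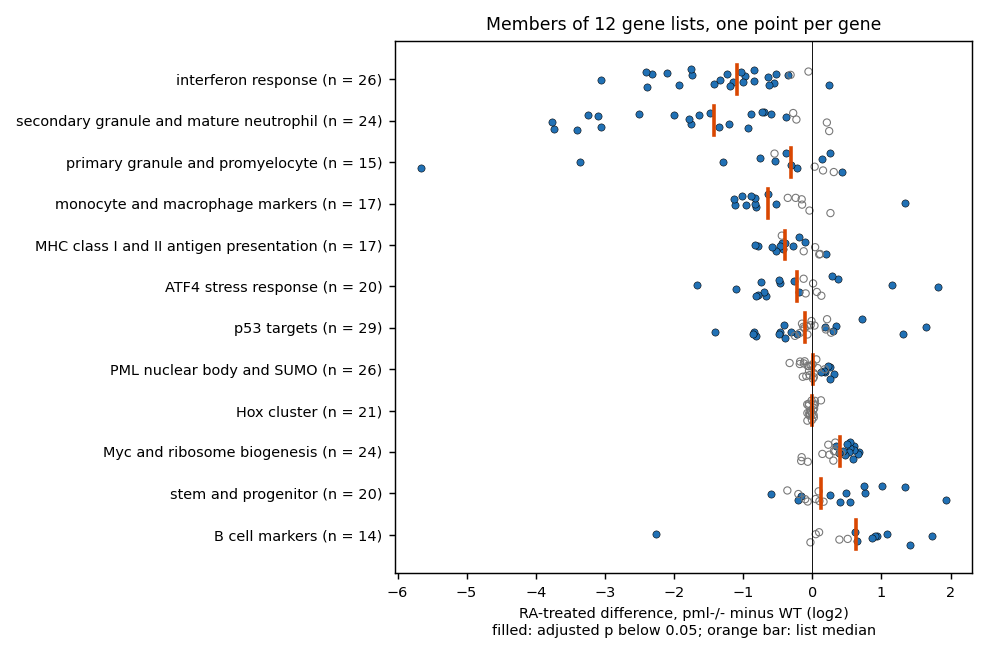
Treated difference (pml-/- minus WT, log2) of the measured members of 12 lists, 1 point per gene, filled where called, with orange bars at the list medians. The interferon and secondary granule lists lie mostly below 0, with medians of -1.09 and -1.42, while the Hox cluster and the PML nuclear body and SUMO lists lie close to 0.

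Stem and progenitor genes were higher in 9 of 20 cases and lower in 3 (median 0.13). Kit, the stem cell factor receptor, was at 7.01, 7.45 and 9.19 in WT and at 8.91, 9.65 and 10.79 in pml-/-, a difference of 1.94 ± 0.22 with overlapping ranges. The RA effect on Kit was -1.51 ± 0.24 in WT and -1.36 ± 0.24 in pml-/-. Gata2 (1.34 ± 0.15) and Myb (0.77 ± 0.08), transcription factors of progenitors, were higher, and Tal1 (-0.59 ± 0.08) was lower, though not called in batch 4 alone (-0.36). None of 21 Hox cluster genes was called by limma, 1 had an unadjusted p below 0.05, and their median level of 5.68 in WT and 5.66 in pml-/- was low in both.

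Myc and ribosome biogenesis genes were higher in 13 of 24 cases and lower in none (median 0.40), for example the pyrimidine enzyme Cad (0.68 ± 0.14) and the pseudouridine synthase Dkc1 (0.65 ± 0.12). Untreated, 10 were higher and 3 lower (median 0.16); at 12 h alone the median was 0.27, with 0 of 24 called by limma and 0 with an unadjusted p below 0.05. Without the 4 WT arrays that stood apart, 20 were higher and the median was 0.63. Mitosis genes were lower in 13 of 24 cases (median -0.17), among them the checkpoint kinase Bub1 (-0.62 ± 0.08). Replication genes were lower in 10 of 29 cases and higher in 2 (median -0.13), and untreated 4 were higher and 4 lower. This rested on batch 3, with 11 lower and a median of -0.26, against 3 higher, 0 lower and 0.014 in batch 4. Rfc3, a clamp loader subunit, was lower (-0.76 ± 0.11), was not called in batch 4 alone (-0.48) and lies in a shifted chromosome stretch described below. Cholesterol synthesis genes were higher in 9 of 16 cases and lower in 1, Fdps (-0.65, not called at 12 h alone). Among those higher were Dhcr7 (1.12 ± 0.11) and Sc5d (0.89 ± 0.07), which act at late steps.

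Genes tied to PML nuclear bodies were called about as often as all genes. Of 26 PML nuclear body and SUMO genes, 7 were called (26.9%, against 30% of all genes), all higher, with a list median of 0.01. Without the 4 WT arrays that stood apart, 7 were higher and 4 lower. None was called at 1.5-fold or more, against 8.4% of all genes. The SUMO protease Senp2 had 0.31 ± 0.07, and Sp100 (-0.05 ± 0.15) and Daxx (-0.14 ± 0.05) were not called. Senp2 was not called in batch 3 or at 12 h alone, while Daxx was called in some alternative fits. Sp100 was called lower without the 4 WT arrays that stood apart (-0.33, adjusted p = 0.0298). Among 29 p53 targets, 6 were higher and 10 lower (median -0.11). Sesn1, a stress sensor of the mTOR pathway, was higher by 1.64 ± 0.09 and Perp, a membrane protein of p53-dependent death, by 1.31 ± 0.12. Trp53inp1, a cofactor of p53 in stress, was lower (-1.40 ± 0.09), while Mdm2, the main negative regulator of p53, did not pass the test (-0.15 ± 0.06, adjusted p = 0.0613) but was called lower in some alternative fits, among them 6 h alone (-0.20). No p53 target was called by limma for a change of its difference under RA, and 2 had an unadjusted p below 0.05.

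Senescence and CDK inhibitor genes had 1 higher and 3 lower of 16 (25% called, against 30% of all genes). Cdkn2c, the p18 inhibitor, was lower in both states, -1.48 ± 0.09 with RA and -0.84 ± 0.09 without. The RA effect on Cdkn2c was 0.34 ± 0.10 in WT and -0.30 ± 0.10 in pml-/-. Apoptosis regulators had 2 higher and 6 lower of 18, with the death agonist Bid higher (0.77 ± 0.08) and the survival factor Bcl2l1 lower (-0.74 ± 0.06). ATF4 stress response genes went both ways: the serine and asparagine synthesis enzymes Phgdh (1.81 ± 0.14) and Asns (1.16 ± 0.12) were higher, and the cystine transporter Slc7a11 (-1.66 ± 0.17) was the lowest of 11 lower members of 20.

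Retinoic acid targets were also split, with 6 higher and 5 lower of 22. Cyp26a1, which degrades RA and is a sensitive target of its receptors, was induced by 4.66 ± 0.25 in WT and by 5.32 ± 0.25 in pml-/- from untreated medians of 5.39 and 5.31. Treated levels overlapped, at 8.52, 10.16 and 10.58 in WT and 9.25, 10.70 and 11.55 in pml-/-. The difference of 0.62 ± 0.23 just passed (adjusted p = 0.0427) but was not called in 18 of 37 alternative fits, which gave 0.07 to 0.89; it was 0.36 without the 4 WT arrays that stood apart. Its promoter is shown because it holds a direct repeat spaced by 5 bases, the form bound by retinoic acid receptors. The letters searched, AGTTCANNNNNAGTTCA on either strand, are an exact spelling that Cyp26a1 itself has, so their rarity rests on that choice. They were found in 8 of 32544 promoters and in 1 of the 17 retinoic acid targets with a promoter entry. The 150 bases at chr19:37697658-37697807 (plus strand, GRCm38.p6) before the start follow, with the repeat in capitals.
Cyp26a1: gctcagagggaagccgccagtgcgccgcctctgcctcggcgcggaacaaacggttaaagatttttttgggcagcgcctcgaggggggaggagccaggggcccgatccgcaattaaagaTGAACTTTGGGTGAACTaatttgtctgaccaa
The repressor gene Bhlhe40 was induced in both backgrounds, by 2.22 ± 0.17 and 2.37 ± 0.17, and remained lower in pml-/- (-1.43 ± 0.15), while Rara differed by -0.75 ± 0.08 with RA and -0.79 ± 0.09 without.

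Some markers of other marrow cells differed too, and their part in the results above was not tested. Monocyte and macrophage markers were lower in 10 of 17 cases and higher, by at least 1.5-fold, in 1 (median -0.63). Among those lower were Csf1r, the receptor for macrophage colony-stimulating factor (-0.83 ± 0.10), and Cd68 (-0.96 ± 0.11, not called at 12 h alone). The mean level of the list ranged from 8.62 to 9.29 in WT and from 8.18 to 8.66 in pml-/-. B cell markers were higher in 8 of 14 cases, with a mean level of 6.78 to 7.41 in WT and 6.77 to 8.54 in pml-/-, and the member Igll1 was lower (-2.26 ± 0.26, not called in batch 4 alone). This rested on batch 4, where the median was 1.54 with 9 higher, against 0.23 with 2 higher in batch 3. Erythroid markers had 1 called of 10, and T and NK cell markers 4 of 14, among them Thy1 (-2.33 ± 0.15).

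Mast cell, basophil and eosinophil markers went both ways: 5 were higher and 2 lower of 16, with Cpa3 higher and the basophil protease Mcpt8 lower (-1.39 ± 0.18). Of 10 megakaryocyte and platelet markers, 6 were lower, among them Pf4 (-0.73 ± 0.14); at 12 h alone 1 was lower and Pf4 was not called (-0.66). The integrin Itgb3 was higher (1.21 ± 0.15). Of 16 stroma and endothelium markers 3 were called (18.8%, against 30% of all genes), 1 higher and 2 lower, with a list median of -0.09. Pdgfrb, a growth factor receptor of pericytes, was higher by 2.68 ± 0.22 and without overlap, while Eng (-0.44) and Vwf (-0.36) were lower. Eng was not called in batch 4 alone, and Vwf was not called at 12 h alone.

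Differences were also uneven along the chromosomes, a pattern noticed after seeing the data. Expressed genes (mean log2 of at least 8, 7521 genes) were put in gene order of the mouse RefSeq annotation, and runs of at least 4 bins of 25 genes shifted by at least 0.15 were kept. All of chromosome 12 (268 genes) had a median of -0.35, with 174 genes called lower and 17 higher. The stretch of chromosome 15 from Selenop to Tab1 (169 genes) had a median of -0.30, against 0.11 on the rest of that chromosome. The end of chromosome 5 from Tmem120a to Rfc3 (116 genes) had -0.35, against 0.08, and the end of chromosome 11 from Cd79b to Tbcd (120 genes) 0.31, against 0.04. Off these stretches the median was 0.06. These medians are small beside the largest single genes but were shared by most genes of a stretch.

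The shift was present in each array. An array's level was the median over a stretch's genes, each centred over the 36 viral arrays, minus that of genes off the stretches. On chromosome 12 it was -0.25 to -0.15 in the 12 treated pml-/- arrays and 0.15 to 0.27 in the 12 treated WT arrays. On chromosome 11 the treated ranges were 0.05 to 0.25 in pml-/- and -0.21 to -0.10 in WT. Neither overlapped, but the stretches were picked by the treated difference, so this follows in part from that choice. The untreated difference was not used to pick them. Untreated levels on chromosome 12 were -0.25 to -0.18 in pml-/- and 0.16 to 0.26 in WT. On chromosome 11 they were 0.07 to 0.21 in pml-/- and -0.20 to -0.15 in WT. The untreated medians were -0.37 for the difference on chromosome 12 and 0.35 on chromosome 11. These stretches hold 8.95% of the expressed genes and 23.3% of the expressed genes called lower, a share that also follows in part from the choice. Of the named list members, Ndrg1, Rrm2, Cd79b, Rfc3, Sumo2 and Birc5 lie on them. By list, they hold 3 of 28 expressed replication genes, 3 of 20 Myc and ribosome biogenesis genes, 2 of 22 granule genes (Ly6g and Ncf4) and 0 of 17 interferon genes. DNA copy number was not measured here, and its part in these shifts was not tested.

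**Figure D5:**
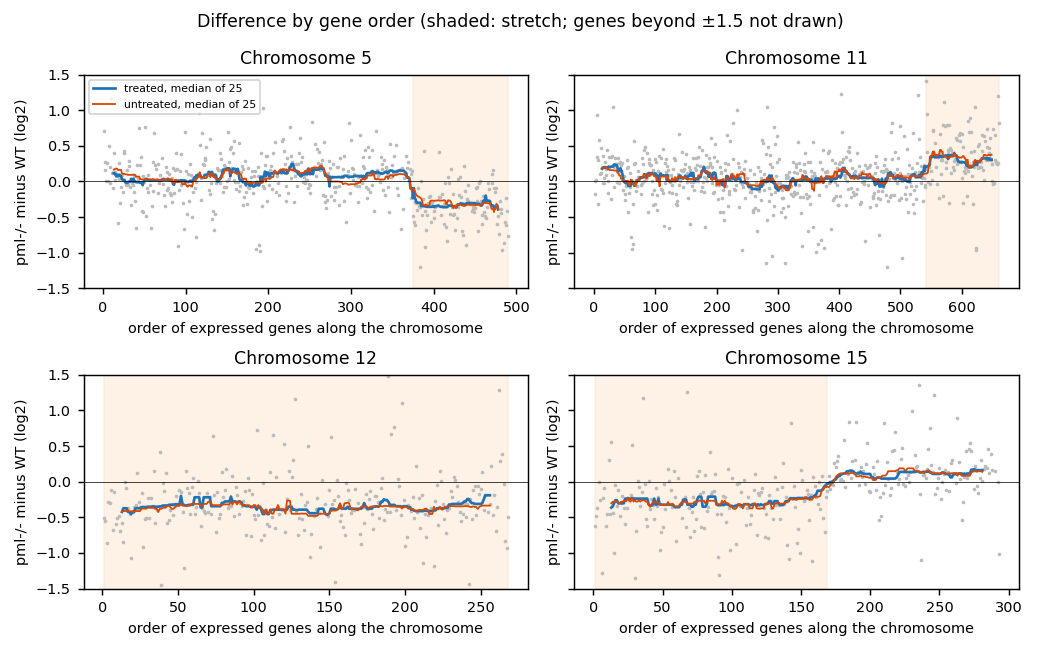
Difference (pml-/- minus WT, log2) of expressed genes in chromosome order for chromosomes 5, 11, 12 and 15, with running medians of 25 genes for treated (blue) and untreated (orange) arrays and the stretches shaded. The treated and untreated lines shift together at the edges of each stretch, to about -0.35 on chromosomes 5 and 12, -0.30 on chromosome 15 and 0.31 on chromosome 11.

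Near Pml on chromosome 9, the called share of the 50 closest genes was below the 30% of all genes, and those called were all lower. Of the 20 measured genes nearest to Pml (10 on each side), 4 were called (20%), all lower. Of the 50 nearest 11 were called (22%), again all lower, against 13.8% lower and 16.1% higher among all genes. Calls of at least 1.5-fold were 0 of the 20 and 2 of the 50 (4%), against 8.4% of all genes. Of the 100 nearest, 15 were higher and 14 lower, and of the 200 nearest 36 were higher and 23 lower. Sema7a, a membrane-bound semaphorin, was lower (-0.39 ± 0.07, not called in batch 4 alone) and so was Stoml1 (-0.20 ± 0.08, adjusted p = 0.0486), which was not called in 24 of 37 alternative fits.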

How the data were processed

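Per the labels, total RNA was biotin-labelled and hybridised to Affymetrix Mouse Gene 1.0 ST arrays. The table that the authors deposited holds log2 values. RMA and affy are the tools named, per the submitters' processing notes; how the background, probe set summary and batches were handled, and tool versions, are not stated there. Of 35556 probe sets, 21789 were paired with 1 gene symbol in the annotation of the platform, 1621 with several (left out), and 12146 were not listed. Each gene took its probe set with the highest mean, which gave 19938 genes.

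limma 3.58.1 in R 4.3.3 (data.table, version 1.17.8) was fitted to the 24 treated arrays with background, time and batch, and in the same way to the 12 untreated arrays. The change under RA was the background by treatment interaction over the 36 viral arrays, and the change with time the background by time interaction over the 24. Tests were two-sided, with eBayes and Benjamini-Hochberg adjustment over all genes. No filter on low values was used. The scripts were tested on simulated data. Precision is limited by the number of arrays; the treated fit left a median gene-wise residual SD of 0.165. Array medians lay between 6.56 and 6.76, and no 2 arrays were identical.

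The text names the 12 largest rises and falls, up to 6 genes per sign whose change under RA was called (with the treated difference called, or only the untreated one), up to 4 members per list by the moderated statistic, genes called for time, a panel of 16 genes (12 measured; the others were not analysed here) and the neighbours of Pml. Clone, predicted, immunoglobulin and receptor segment names were left out. Of the 591 list entries, 518 were measured. Members and lists were chosen with earlier results of these data known, and further members are given as values only. Promoters come from RefSeq, GRCm38.p6; gene order comes from the mouse RefSeq annotation. Alternatives were another quantile normalization, a filter on low values, no batch term, means of probe sets, a trended robust prior, array weights, single times and batches, all 36 arrays, leaving out each array, and, added after seeing the data, leaving out the genes of the chromosome stretches or the 4 WT arrays that stood apart.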

Additional observations from a re-analysis of the deposited data

Results flagged for a closer look

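Of 480 sets made of 1 gene in 1 group of 4 or 8 treated arrays, 12 held an array far from the others; chance alone flags about 1 in 20 such sets. Among WT arrays at 6 h, replicate 3 was low for Lipo3 (9.3) and high for Jun (10.4), replicate 5 was low for Hipk2 (10.4), and replicate 2 was low for Xist (6.02). Among pml-/- arrays at 6 h, replicate 3 was low for Lurap1l (7.13) and replicate 6 high for Mcl1 (10.8), and replicate 8 was high for Steap4 (6.86) and low for St8sia5 (4.95). Among pml-/- arrays at 12 h, replicate 1 stood apart for Ces2g (6.92), replicate 2 for Casp8 (11.5) and replicate 4 for Camp (7.39) and Igll1 (7.88).

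For some named genes the difference between backgrounds changed under RA by the limma interaction test (log2, treated minus untreated difference). The changes towards pml-/- were 2.74 for Arg2, 2.27 for Chil1, 2.17 for Tent5c, 1.92 for Tgfbi, 1.65 for both Clec4n and Fcgr3, 1.59 for Nlrp3, 1.52 for Steap4, 1.5 for Gfi1b, 1.46 for St8sia5, 1.36 for Stra8, 1.12 for Irak2, 1.07 for Ffar2 and 0.728 for Plscr1. The changes towards WT were -2.35 for Vdr, -2.21 for Nr4a1, -1.83 for Bcl2l15, -1.56 for Wee2, -1.55 for Mmp9, -1.52 for Cd40lg, -1.26 for Tgm2, -1.07 for Il17rb, -0.911 for Raet1d, -0.641 for Cdkn2c, -0.459 for Slc22a4 and -0.444 for Hipk2. From 6 h to 12 h the treated difference changed by 1.73 for Ngp and 1.55 for Ces2g.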

How the results depend on the processing

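No call of a named gene reversed in the alternatives run, but 16 of 364 list medians took the other sign, over 9 lists, the farthest from 0 at -0.13; replication genes went from -0.13 to 0.014 in batch 4. The count of treated calls was 2793 at 12 h alone and 3801 in batch 4 alone (8 arrays each, so fewer samples), 5042 at 6 h, 4440 in batch 3 and 5443 without the genes of the chromosome stretches, an alternative added after seeing the data. Leaving out each array gave 5668 to 6064 treated, 6152 to 6564 untreated, 173 to 276 change and 1 to 19 time calls; 19 came without pml-/- RA 6 h replicate 8. Array weights gave 547 change calls (293 towards pml-/-, 254 towards WT) and 26 time calls, and another quantile normalization 1 time call; the cause was not tested. The array weights of the time fit stopped before convergence, so those 26 calls are unsettled. Leaving out the 4 WT arrays that stood apart gave 512 change and 15 time calls and list medians of -0.19 for p53 targets and 0.082 for retroviral insertion genes. With the filter on low values the list medians were 0.40 for stem and progenitor genes and 0.30 for mast cell, basophil and eosinophil markers. This filter (log2 of at least 6 in at least 12 arrays) left Stra8, Bcl2l15, Clec4n, Cd40lg and Wee2, among other named genes, out of the treated fit. Their treated differences could therefore not be checked in that alternative. At 12 h alone medians were -0.038 for p53 targets, -0.16 for senescence, -0.91 for secondary granule, -0.048 for primary granule, -0.18 for glycolysis, -0.036 for coagulation, 0.38 for B cell and -0.30 for monocyte lists. In batch 3 they were -0.035 for p53 targets and 0.23 for B cell markers, and in batch 4 -1.87 for secondary granule, 0.24 for stem, -0.11 for MHC, -0.086 for coagulation, 1.54 for B cell and 0.22 for mast cell, basophil and eosinophil lists. Over 177 named genes, 2274 refits other than leaving out 1 array lost 87 calls and gained 25. No paired analysis was possible because the labels give every array the same replicate number.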

Other observations

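Cholesterol, coagulation, antigen presentation and glycolysis genes held further differences. Of 17 coagulation and fibrinolysis genes, 9 were lower and 3 higher in treated pml-/- arrays, with the plasminogen receptor Anxa2 at -0.81 ± 0.06 and F7, coagulation factor VII, at 1.28 ± 0.11. Of 17 antigen presentation genes 11 were lower, among them H2-DMa, which loads class II peptides (-0.83 ± 0.08), and Psmb9, an immunoproteasome subunit (-0.53 ± 0.08). Of 20 glycolysis and hypoxia genes 11 were lower, among them the glucose transporter Slc2a1 (-0.84 ± 0.09) and Ndrg1 (-1.31 ± 0.13), which lies on the shifted stretch of chromosome 15. Genes known as targets of retroviral insertion were called about as often as all genes (31.2% against 30%). Of these 32 genes 6 were higher and 4 lower (median 0.005), with Bcl11a at -2.24 ± 0.09 and Ccnd3 at -0.67 ± 0.07. Jun differed by -1.46 ± 0.23 (not called in batch 4 alone, adjusted p = 0.0789) and Nr4a2, a relative of Nr4a1, by 0.42 ± 0.08 (not called at 12 h or in batch 4 alone).

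The 16 RA-treated transgenic PML/RARA arrays, of another model and other batches, give another level for the 24 genes with the largest treated differences. They too are labelled WT for background, so WT and pml-/- in this paragraph name the viral groups only. Among the 12 genes lower in pml-/-, the transgenic median lay nearer the pml-/- level for 10 and nearer WT for 2, Ms4a3 (12.24) and Lipo3 (7.66). Gal had a transgenic median of 6.51, against 12.33 in WT and 6.50 in pml-/- viral arrays. Among the 12 genes higher in pml-/-, the transgenic median lay nearer WT for 6 and nearer pml-/- for 6, for example Dmrt1 at 6.37 and Mgam at 12.17. On the chromosome stretches, WT minus transgenic medians were 0.40 on chromosome 12, 0.29 on chromosome 15, 0.35 on chromosome 5 and -0.04 on chromosome 11, and pml-/- minus transgenic medians 0.06, -0.03, 0.00 and 0.27. Model and batch cannot be told apart in these values.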
